A study of Mus musculus with 8 samples.

Results

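The S100 genes encode small proteins that bind calcium through a pair of EF hands, and 9 of them, *S100a1*, *S100a4*, *S100a6*, *S100a10*, *S100a11*, *S100a13*, *S100a14*, *S100a16* and *S100g*, were described in stem cells of the mouse intestine. The genes were selected by symbol, with it already known that *S100a6* was higher in one genotype of these libraries, so that every difference between the genotypes given here for a member is a description and not evidence. In the deposited signal table of 25485 genes, 8 of the 9 names were found, and *S100a4* was not. The deposited count table of 53801 genes holds all 9 names among 17 S100 genes.

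RNA was sequenced from Lgr5-GFP+ cells that were sorted from intestinal crypts after staining for EpCAM, CD45 and CD24, with 1 library labelled for each of 8 mice. All mice carried Lgr5-EGFP-IRES-CreERT2, which expresses a tamoxifen-dependent Cre from the Lgr5 locus, and the stabilised β-catenin allele β-cat GOF, which loses exon 3 on recombination. The 4 mice of the β-cat GOF; Mll1-/- group (J_7075, J_7096, J_7135 and J_7136) were labelled knockout, and the 4 mice of the β-cat GOF; Mll1+/- group (J_7079, J_7100, J_7134 and J_7139), the controls, lost 1 Mll1 allele as well. Tamoxifen was injected at 50 mg/kg on 3 consecutive days at 4 to 6 weeks of age, and cells were taken 10 days after induction. No library without β-cat GOF was analysed here, and cells of the Lgr5 lineage that escaped recombination can be present in either group. In bulk libraries such as these, fewer cells of a type and less RNA per cell cannot be told apart.

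S100 proteins work mostly as dimers. On binding calcium, most of them expose a surface that docks to partner proteins such as annexins, myosin and p53, and a few are released from cells and bind the receptor Ager. In the intestine the family is best known for S100g, or calbindin-D9k, which carries calcium across the absorptive cell under the control of vitamin D, and for S100a8 and S100a9, the calprotectin of infiltrating neutrophils.

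Mll1 is encoded by *Kmt2a*, whose counts were summed over the whole gene. *Kmt2a* was at 53.5 to 78.5 CPM (counts of a gene relative to library size, after TMM scaling) in the libraries labelled Mll1-/- and at 48.9 to 64.9 CPM in the Mll1+/- libraries, so that its count was not lower under the knockout label, and the groups are named by their labels throughout. *Ctnnb1*, the β-catenin gene, was at 154 to 196 and 147 to 188 CPM. Depth was 14468751 to 16847793 counts on genes per library. Library J_7135 (Mll1-/-) stood apart, with a highest Spearman correlation over genes of 0.909 to any other library, where the other libraries reached at least 0.947. It held both Xist (208 CPM) and the Y-linked *Eif2s3y* (99.5 CPM), while each other library held at least 152 CPM of one of them and at most 2.84 CPM of the other. Whether J_7135 holds cells of 1 animal was not tested. Library numbers in the count table form a first set (J_7075, J_7079, J_7096 and J_7100) and a second set (J_7134, J_7135, J_7136 and J_7139), each with 2 libraries of each genotype. *Eif2s3y* marked J_7075 and J_7096 (Mll1-/-), and Xist marked J_7079 and J_7100 (Mll1+/-), so that genotype and sex cannot be told apart in the first set. In the second set *Eif2s3y* marked J_7134 (Mll1+/-) and Xist marked J_7136 (Mll1-/-) and J_7139 (Mll1+/-), beside J_7135 with both. Lgr5 itself was at 261 ± 19.9 CPM in Mll1-/- and 271 ± 41.0 CPM in Mll1+/- libraries (SD, n = 4 each), and *Ptprc*, which encodes CD45, was at most at 0.957 CPM.

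On GRCm38, the assembly also called mm10, 8 of the 9 members lie on chromosome 3 and *S100g* lies on chromosome X (162961992 to 162964599, minus strand). The first stretch of 185 kb holds 12 S100 genes, starting with *S100a1* (90511034 to 90514392, minus strand) and *S100a13* (90514435 to 90524581, plus strand), which are transcribed away from each other with 42 bases between them. *S100a14* (90526856 to 90528837), *S100a16* (90537254 to 90543151), *S100a4* (90603771 to 90606045) and *S100a6* (90612882 to 90624181) follow on the plus strand. *S100a11* (93520488 to 93526287) and *S100a10* (93555080 to 93564643), also on the plus strand, lie at the far end of a region of 3054 kb with 28.8 kb between them. The sequences shown are the 250 bases upstream of the RefSeq start sites (GRCm38.p6) of the 3 genes whose libraries separated most clearly by genotype or by set of library numbers and had an entry. They are given on the strand of the gene, and *S100a16* has both an outer and an inner start. Capitals mark AP-1 (TGANTCA), GC box (GGGCGG) and CAGCTG E-box letters found on either strand.
S100a6, chr3:90612644-90612893: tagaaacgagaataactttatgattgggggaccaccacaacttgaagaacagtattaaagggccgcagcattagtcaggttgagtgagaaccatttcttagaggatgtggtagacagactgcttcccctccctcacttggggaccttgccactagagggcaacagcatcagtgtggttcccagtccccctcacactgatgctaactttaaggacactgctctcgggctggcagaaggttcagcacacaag
S100a16 outer start, chr3:90537004-90537253: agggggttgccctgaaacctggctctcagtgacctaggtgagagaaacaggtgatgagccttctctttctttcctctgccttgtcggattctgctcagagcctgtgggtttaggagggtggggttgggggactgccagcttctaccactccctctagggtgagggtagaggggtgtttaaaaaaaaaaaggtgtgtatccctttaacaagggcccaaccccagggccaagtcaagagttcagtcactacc
S100a16 inner start, chr3:90540896-90541145: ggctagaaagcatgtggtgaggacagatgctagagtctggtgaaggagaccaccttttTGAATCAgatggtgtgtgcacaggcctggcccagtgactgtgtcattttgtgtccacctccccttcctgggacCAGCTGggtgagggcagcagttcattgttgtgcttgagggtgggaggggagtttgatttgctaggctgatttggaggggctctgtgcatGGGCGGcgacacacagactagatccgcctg
S100a11, chr3:93520246-93520495: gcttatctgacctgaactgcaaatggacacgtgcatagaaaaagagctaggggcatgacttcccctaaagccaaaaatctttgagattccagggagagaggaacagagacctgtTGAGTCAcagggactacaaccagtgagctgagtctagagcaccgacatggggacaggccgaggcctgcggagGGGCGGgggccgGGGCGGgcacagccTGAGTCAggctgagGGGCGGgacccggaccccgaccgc

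The upstream stretch of *S100a11* held 2 AP-1 and 3 GC box matches, and that of the inner *S100a16* start held 1 match of each of the 3 motifs. *S100a6* and the outer *S100a16* start held none of them. The TCF/LEF letters CTTTGAT were found in 0 of the 8 member stretches, which belong to 7 genes, and in 3.21% of all 32851 stretches of this length. AP-1 letters were found in 6.75%, GC box letters in 32.7%, CAGCTG in 13% and TATAAA, which among the members only *S100a4* held, in 12.4% of all stretches. The motifs do not overlap each other in these stretches, and a match is a description of letters and not of a binding site.

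The level of the family was dominated by *S100a10*. Divided by the length of annotated exons, *S100a10* was at 202 ± 38.3 CPM per kb (SD, n = 8), rank 365 of the 16445 genes that passed the filter on low counts. *S100a10* encodes p11, which keeps its partner annexin A2 at the membrane and, unlike its relatives, does not need calcium to do so. In plain CPM it made up 56.4 to 71.2% of the summed level of the 8 members in each library, and the sum was 323 to 457 CPM. *S100a11*, which binds annexin A1, followed with 79.2 ± 27.5 CPM per kb and rank 851, and *S100a1*, best known from calcium handling in muscle, with 49.0 ± 13.9 CPM per kb and rank 1305. *S100g* was at 27.4 ± 13.2, *S100a16* at 12.2 ± 3.75, *S100a6* at 15.7 ± 12.4 and *S100a13* at 7.26 ± 1.51 CPM per kb, with ranks 2117, 4030, 3314 and 5677. *S100a14* was lowest with 0.682 ± 0.686 CPM per kb and rank 14196.

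By mean log2 level per kb the order was *S100a10*, *S100a11*, *S100a1*, *S100g*, *S100a16*, *S100a6*, *S100a13* and *S100a14*, and 4 of its 7 neighbouring pairs differed at an adjusted p under 0.05 (exact two-sided sign-flip permutation over 8 libraries, Benjamini-Hochberg over the 7 pairs). *S100a10* was above *S100a11* by 1.41 ± 0.33 on the log2 scale, higher in 8 of 8 libraries (exact adjusted p = 0.018). *S100a1* was above *S100g* by 0.94 ± 0.91, also in 8 of 8 libraries (exact adjusted p = 0.018). *S100g* was above *S100a16* by 1.08 ± 0.90 in 7 of 8 libraries (exact adjusted p = 0.027), and *S100a13* was above *S100a14* by 4.15 ± 1.84 in 8 of 8 (exact adjusted p = 0.018). J_7079, J_7134, J_7135 and J_7139 held only 2, 1, 0 and 3 counts of *S100a14*. There its log2 level depends on the prior count of 2 added before taking logs, so the size of the step from *S100a13* to *S100a14* is uncertain. The neighbours *S100a11* and *S100a1* (0.65 ± 0.88, exact adjusted p = 0.098), *S100a16* and *S100a6* (0.08 ± 1.21, exact adjusted p = 0.836) and *S100a6* and *S100a13* (0.60 ± 1.31, exact adjusted p = 0.273) did not pass. Per kb, *S100a6* was above *S100a16* in 3 of the 4 Mll1-/- libraries and below it in 3 of the 4 Mll1+/- libraries, and the pair changed places when J_7079 or J_7139 was left out. With counts not divided by length the order was *S100a10*, *S100a11*, *S100a1*, *S100a16*, *S100a6*, *S100g*, *S100a13* and *S100a14*, so that the place of *S100g* above *S100a16* and *S100a6* rests on the length used. These are levels within the libraries of both genotypes, and the exon length counts every annotated exon, of which a cell may use only part. The level of *S100a11* is also uncertain, since 48.9% of its 31-base words occur in transcripts of other genes as well. The order was not computed with its processed copies added, so the sizes of its steps to *S100a10* and *S100a1* are uncertain too.

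**Figure D1:**
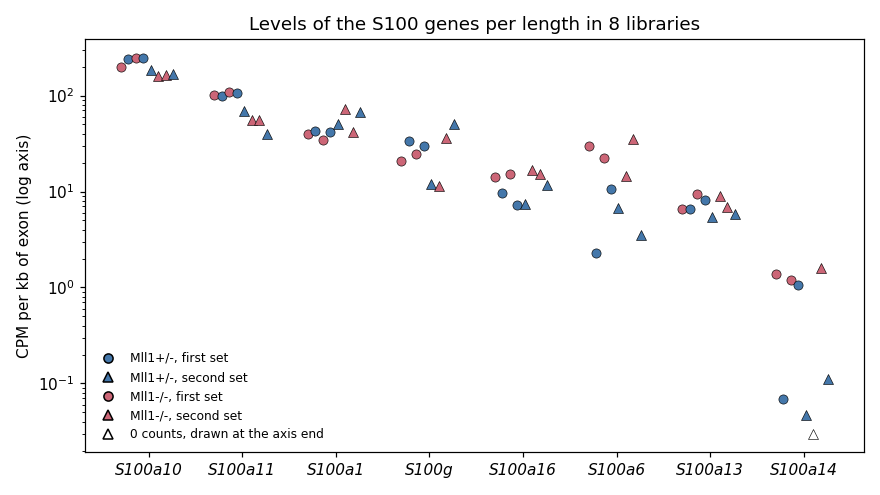
Level of each tested S100 gene in CPM per kb of exon on a log axis, with 1 point for each of the 8 libraries, coloured by genotype and shaped by set of library numbers. *S100a10* lies above *S100a11* in every library, the points of *S100a6* spread most among the genes above *S100a14*, and the open triangle is the Mll1-/- library with 0 counts of *S100a14*.

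S100a6, or calcyclin, is a small dimer that binds the ubiquitin ligase adaptor Cacybp and several annexins. *S100a6* (ENSMUSG00000001025) was at 41.2, 30.7, 20.0 and 48.1 CPM in the Mll1-/- libraries J_7075, J_7096, J_7135 and J_7136. The Mll1+/- libraries J_7079, J_7100, J_7134 and J_7139 held 3.11, 14.6, 9.22 and 4.84 CPM. Every Mll1-/- library thus lay above every Mll1+/- library, with J_7135 lowest in its group and J_7100 highest in its own. Group means were 35.0 ± 12.3 and 7.95 ± 5.14 CPM (SD, n = 4 each), with a fitted log2 fold change of 2.14 (standard error 0.48). As a plain difference of mean log2 CPM, it was 2.37 in the first set of library numbers, where the genotypes also differed in sex transcripts, and 2.19 in the second. The fitted value was 1.87 to 2.62 when each library was left out in turn.

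*S100a16* (ENSMUSG00000074457) encodes a widely expressed S100 protein. It was at 22.8, 24.6, 27.2 and 24.8 CPM in J_7075, J_7096, J_7135 and J_7136. J_7079, J_7100, J_7134 and J_7139, of the Mll1+/- group, held 15.5, 11.8, 11.9 and 19.0 CPM. The genotypes again did not overlap, and the Mll1-/- libraries lay close together, with a coefficient of variation of 7.12% against 23.7% in the Mll1+/- libraries. The means were 24.9 ± 1.77 and 14.6 ± 3.45 CPM (SD, n = 4 each), a fitted log2 fold change of 0.77 (standard error 0.21). Fits with single libraries left out gave 0.68 to 0.92. The differences of mean log2 CPM within the sets were 0.80 and 0.78.

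*S100a14* and *S100a13* lie between *S100a1* and *S100a16*. *S100a14*, an epithelial member of the family, had 40, 36, 0 and 42 counts in J_7075, J_7096, J_7135 and J_7136, and 2, 26, 1 and 3 counts in J_7079, J_7100, J_7134 and J_7139. The groups overlapped, since J_7135 held no count and J_7100 held 26, and 4 of the 8 libraries were at or under the floor of 3 counts, which is 0.162 to 0.241 CPM. Its log2 fold change was 1.68 (standard error 1.27), and it was 3.69 without J_7100. *S100a13*, which assists the export of the signal-less growth factor Fgf1, was at 4.72 to 6.78 CPM in Mll1-/- and 3.85 to 5.91 CPM in Mll1+/- libraries, with overlap and a log2 fold change of 0.31 (standard error 0.29).

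The log2 fold changes of the most abundant members lay near 0. *S100a10* was at 242, 301, 196 and 201 CPM in J_7075, J_7096, J_7135 and J_7136, and at 295, 298, 223 and 203 CPM in J_7079, J_7100, J_7134 and J_7139. The log2 fold change of *S100a10* was -0.12 (standard error 0.18), smaller than the spread within either group. *S100a11* had means of 40.9 ± 14.7 and 40.0 ± 15.6 CPM (SD, n = 4 each) and a log2 fold change of 0.03 (standard error 0.35). *S100a1* was at 23.6 to 50.8 CPM in Mll1-/- and 29.2 to 46.7 CPM in Mll1+/- libraries, and its log2 fold change was -0.11 ± 0.27 (standard error). Without J_7135 it was -0.40 ± 0.21 (standard error, adjusted p = 0.634, edgeR).

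*S100g* was at 9.91, 11.9, 5.52 and 17.3 CPM in J_7075, J_7096, J_7135 and J_7136, and at 16.1, 14.3, 5.77 and 24.5 CPM in J_7079, J_7100, J_7134 and J_7139. The groups overlapped widely, each with 1 library under 6 CPM. Its coefficients of variation were 43.7% in Mll1-/- and 50.7% in Mll1+/- libraries, where those of *S100a6* were 35.2% and 64.6%. The log2 fold change of *S100g* was -0.45 (standard error 0.46).

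Of the 8 members tested with edgeR's quasi-likelihood test, 0 had an adjusted p under 0.1 over all genes, and 2, *S100a6* and *S100a16*, had an unadjusted p under 0.05. Over all 16445 genes, 14 or 0.0851% had an adjusted p under 0.1 and 9.15% an unadjusted p under 0.05. DESeq2's Wald test called 2 members, *S100a6* and *S100a16*, and 406 genes in all. The genotypes did not overlap in 2 of the 8 members and in 6.28% of all genes. As the genotype contrast chose *S100a6*, nothing is read from these shares. The median log2 fold change of the 8 members was 0.17, with 5 higher and 3 lower in Mll1-/- libraries, against 0.01 over all genes tested.

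**Figure D2:**
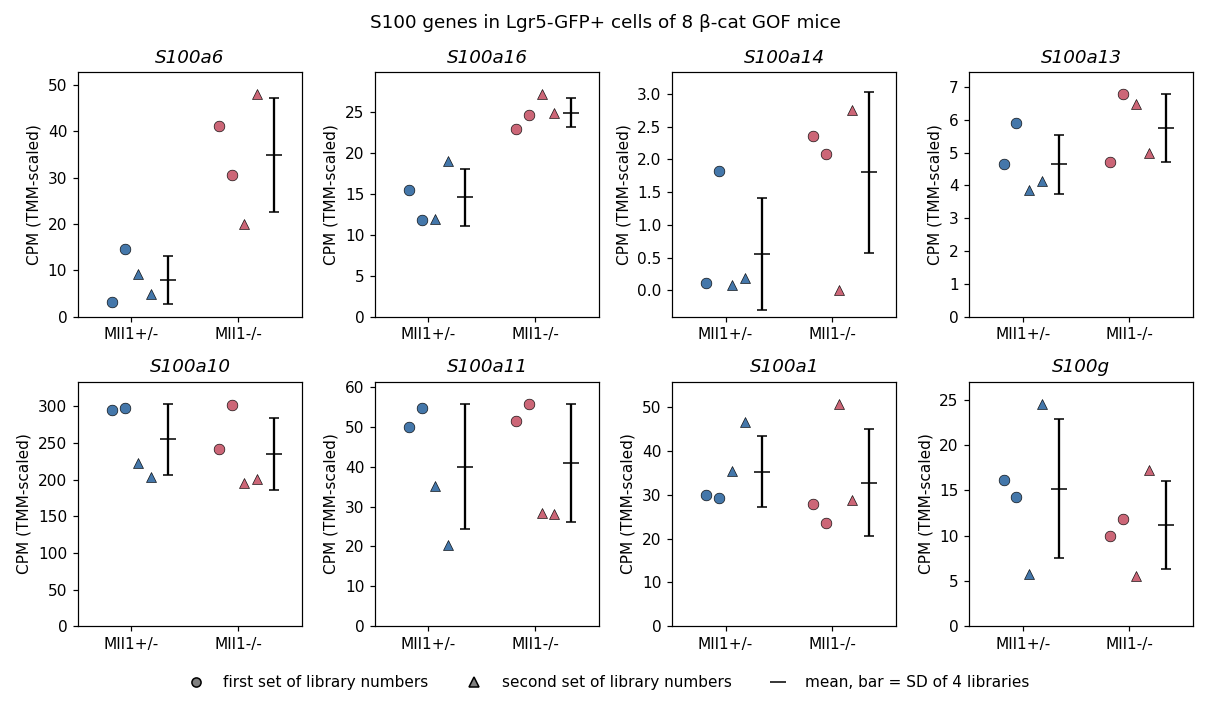
TMM-scaled CPM of the 8 tested members in each library, by genotype, with circles and triangles for the first and second set of library numbers and bars for the mean and SD of 4 libraries. The genotypes are apart for *S100a6* and *S100a16*, whereas circles and triangles are apart for *S100a10* and *S100a11*.

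The sets of library numbers give a comparison that did not enter the choice of the genes, and *S100a10* and *S100a11* were the members whose libraries did not overlap between them. The log2 difference of *S100a14* was larger, -1.56 (standard error 1.30), and rests on 0 to 42 counts a library. *S100a11* was at 51.5, 50.0, 55.8 and 54.7 CPM in J_7075, J_7079, J_7096 and J_7100, and at 35.1, 28.3, 28.2 and 20.3 CPM in J_7134, J_7135, J_7136 and J_7139. The sets did not overlap, with means of 53.0 ± 2.70 and 28.0 ± 6.07 CPM (SD, n = 4 each) and a log2 difference of -0.92 (second against first set, genotype in the model, standard error 0.19, adjusted p = 0.383, edgeR). The difference of mean log2 CPM was -0.92 within the Mll1-/- and -0.97 within the Mll1+/- libraries. *S100a10* was at 242 to 301 CPM in the first and 196 to 223 CPM in the second set, again without overlap, with a log2 difference of -0.46 (standard error 0.10, adjusted p = 0.383, edgeR). As a difference of mean log2 CPM it was -0.44 within Mll1-/- and -0.48 within Mll1+/- libraries. *S100a1* went the other way with 0.55 (standard error 0.21, adjusted p = 0.494, edgeR), and its sets overlapped, at 23.6 to 29.9 and 28.9 to 50.8 CPM. With single libraries left out, this difference was 0.35 (without J_7135, standard error 0.18) to 0.68 (without J_7136).

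By this test 0 of the 8 members, and 0 or 0.0% of all genes, had an adjusted p under 0.1 between the sets. An unadjusted p under 0.05 was found for 3 members, *S100a11*, *S100a10* and *S100a1*, and for 1545 genes or 9.39% of all. DESeq2's Wald test called 386 genes, among them *S100a11* (adjusted p = 0.0018) and *S100a10* (adjusted p = 0.0097), and edgeR without the filter on low counts called *S100a11* (adjusted p = 0.0060) but not *S100a10* (adjusted p = 0.114), with 675 of 40036 genes called in all. The sets did not overlap for 2 of the 8 members and for 5.84% of all genes. What differed between the sets besides their numbers is not labelled. *Anxa2*, named here as the partner of S100a10, had a log2 difference of -0.36 between the sets (unadjusted p = 0.043, adjusted p = 0.524, edgeR). As a difference of mean log2 CPM it was -0.57 within Mll1-/- and -0.16 within Mll1+/- libraries. Among 12 tested genes for partners of S100 proteins, 1 had an unadjusted p under 0.05 between the sets, where 9.39% of all genes had one.

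Reads of *S100a11* can be shared with processed copies, which makes its level uncertain. Of its 31-base words, 48.9% also occur in transcripts of other genes, most of them in *Gm12854* and *Gm7665*, which received 1420 and 886 counts over the 8 libraries. With these copies added, *S100a11* was at 71.4 to 84.0 CPM in the first and 27.1 to 52.4 CPM in the second set, and the sets still did not overlap. *S100a10* shared 0.424% of its words, and the other tested members shared none.

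**Figure D3:**
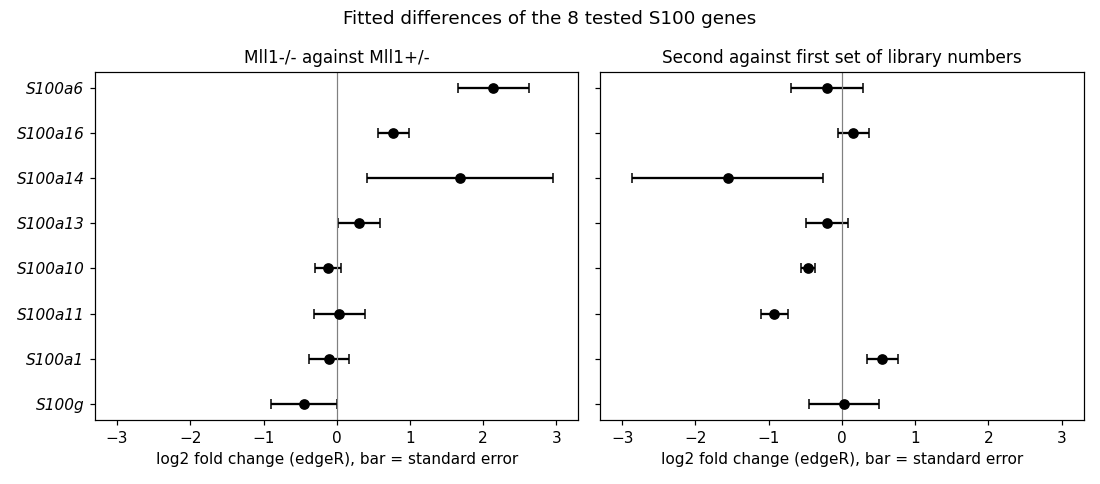
Fitted log2 fold changes of the 8 tested members with standard errors, on the left for Mll1-/- against Mll1+/- libraries and on the right for the second against the first set of library numbers. *S100a6* lies at 2.14 on the left and at -0.20 on the right, while *S100a11* lies at 0.03 on the left and at -0.92 on the right.

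The members known from blood and stroma were at or near 0. *S100a4*, a marker of fibroblasts and other motile cells, had 4 counts in J_7075, 4 in J_7136, 1 in J_7079 and 0 in the other libraries, and 51.7% of its exonic bases lie in exons of *Gm42674*, so that reads there are not assigned to it. *S100a8* had 1 count in all and *S100a9* had 0 counts in every library, which allows a level of up to 0.162 to 0.241 CPM. *S100z* had 0 counts as well, and *S100a2*, *S100a5*, *S100a7a* and *S100b* were below 1.2 CPM in every library. *S100a3* reached 2.81 CPM in J_7134 and 1.51 CPM in J_7136 and was under 0.2 CPM elsewhere. None of these genes passed the filter on low counts, so a difference in them was not tested and could not be detected from so few counts. Of the 7 fused-type genes, in which an S100 domain precedes long repeats of the skin barrier, only *Tchh* was tested (log2 fold change 0.92, standard error 0.76, adjusted p = 0.759, edgeR).

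Along chromosome 3, 22 of the 121 genes between the start of *S100a1* and the end of *S100a10* were tested, 7 of them S100 genes. Of the other 15, 0 had an adjusted p under 0.1 and 2 had an unadjusted p under 0.05, where 9.15% of all genes had one. In Mll1-/- libraries 8 were higher and 7 lower, with a median log2 fold change of 0.09 (range -0.35 to 2.94). The highest were *Sprr2a3* (2.94, standard error 0.73, adjusted p = 0.251), *Sprr2a1* (1.63, standard error 0.60, adjusted p = 0.481) and *Sprr2a2* (1.44, standard error 0.70, adjusted p = 0.581, edgeR), small proline-rich genes that are near copies of one another and are named after their values were seen. In the first stretch, *Gm19739* was the only tested gene that is no S100 gene, and its log2 fold change was -0.12 (standard error 0.25). The S100 genes nearest to *S100a6* on either side, *S100a5* and *S100a7a*, were too low to test.

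**Figure D4:**
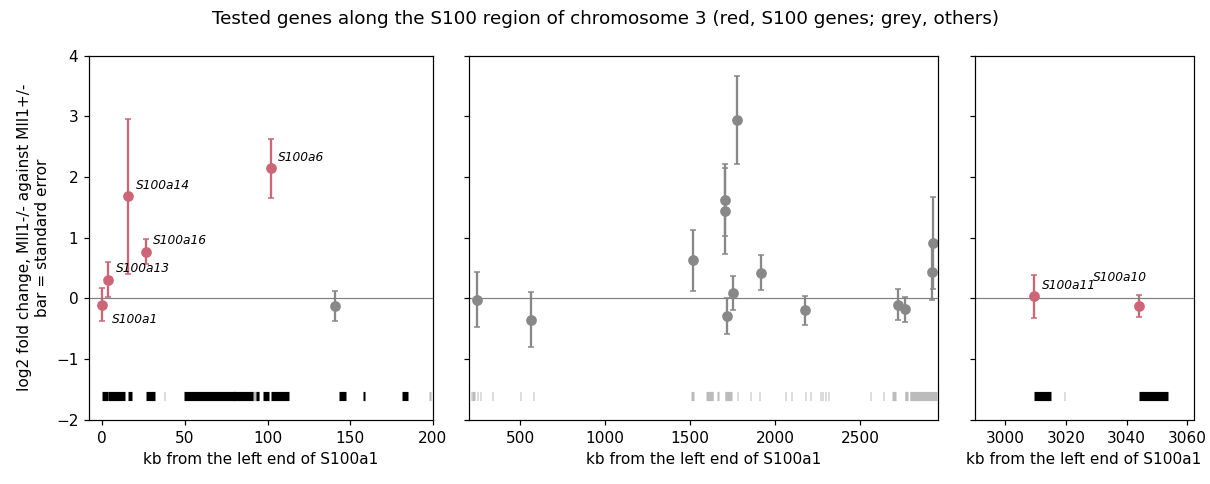
Log2 fold change with standard error of each tested gene, Mll1-/- against Mll1+/-, by its distance in kb from the left end of *S100a1*, with bars at the bottom for all annotated genes (black, S100 genes). The S100 genes range from -0.12 at *S100a10* to 2.14 at *S100a6*, and *S100a1* and *S100a13*, at the left end, lie at -0.11 and 0.31.

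Partners of S100 proteins were compared in a list of 16 genes, of which 12 were tested. In this list 0 genes had an adjusted p under 0.1 (edgeR), 8 were higher and 4 lower in Mll1-/- libraries, and the median log2 fold change was 0.28. An unadjusted p under 0.05 was found for *Trp53*, the p53 gene, at 111 ± 39.0 against 69.6 ± 1.79 CPM (SD, n = 4 each; log2 fold change 0.67, standard error 0.22, adjusted p = 0.424, edgeR). It was also found for *Anxa6*, at 5.40 ± 4.39 against 1.25 ± 1.05 CPM (log2 fold change 2.09, standard error 0.82, adjusted p = 0.499, edgeR), whose groups overlapped. Over all genes, 9.15% had an unadjusted p under 0.05. *Anxa2* and *Cacybp*, named as the best known partners of S100a10 and S100a6, had log2 fold changes of 0.10 (standard error 0.19) and -0.24 (standard error 0.13). The receptor gene *Ager* was at most at 1.12 CPM.

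Of 10 genes of vitamin D signalling and calcium transport, in which S100g works, 5 were tested, with 0 at an adjusted p under 0.1 and 0 at an unadjusted p under 0.05 (edgeR) and a median log2 fold change of 0.01. Trpv6, the apical calcium channel of the same route, was at most at 0.646 CPM and was not tested. Of 28 other EF-hand genes, 23 were tested, 12 higher and 11 lower, with a median of 0.05 and 0 at an adjusted p under 0.1 (edgeR). An unadjusted p under 0.05 was found for *Gca* (0.51, standard error 0.19, adjusted p = 0.486), a penta-EF-hand protein, and *Capn1* (0.55, standard error 0.22, adjusted p = 0.511), a calcium-dependent protease. It was also found for *Calu* (0.36), *Rcn1* (0.77) and *Sdf4* (0.32), which encode calcium binders of the secretory pathway, and *Sri* (-0.27), or sorcin. These are 6 of the 23 genes tested, where 9.15% of all genes had an unadjusted p under 0.05. Between the genotypes, none of the 3 lists had a called gene under any of the 13 alternatives tried.

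Among the 5 genes closest to *S100a6* over the 8 libraries, by the root mean square difference of log2 CPM after centring each gene, were *Lpcat4* (0.53), *Clstn2* (0.58), *Smim3* (0.60) and *Hap1* (0.62), where *S100a6* itself deviates from its mean by 1.33. The genotypes did not overlap for *Lpcat4* and *Smim3*. They overlapped for *Clstn2* and *Hap1*, which were lowest in J_7135 among the Mll1-/- libraries, at 5.25 and 3.19 CPM. As *S100a6* was chosen for its difference between the genotypes, genes that differ between them are near it by construction.

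Some markers of other cell types were unequal between the genotypes, as *S100a6* and *S100a16* were. The summed level of 13 mesenchymal and endothelial markers was 51.0 to 123 CPM in Mll1-/- and 7.04 to 12.3 CPM in Mll1+/- libraries, and this was *Vim*, at 72.2 ± 33.5 against 3.25 ± 2.19 CPM (SD, n = 4 each; log2 fold change 4.49, standard error 0.70, adjusted p = 0.108, edgeR). Without *Vim* the other 12 markers summed to 6.43 to 9.46 and 5.55 to 7.38 CPM. With the endothelial marker *Pecam1* also set aside, the other 11, among them the collagens, *Pdgfra*, *Dcn*, *Acta2* and *Des*, were each at most at 1.48 CPM. The 16 immune markers summed to 4.60 to 11.9 and 12.4 to 24.3 CPM, and the 13 enterocyte markers to 239 to 315 and 391 to 496 CPM, with 9 of 9 tested lower and 5 at an unadjusted p under 0.05. Goblet markers summed to 710 to 1282 and 620 to 829 CPM, with 9 of 11 tested higher and 6 at an unadjusted p under 0.05 (5 higher, 1 lower). Paneth markers summed to 1559 to 5055 and 3107 to 4849 CPM, with 7 of 9 tested lower and 6 at an unadjusted p under 0.05 (5 lower, 1 higher). The 10 stem cell markers, mostly *Olfm4*, summed to 10898 to 17710 and 23154 to 27572 CPM, with 7 of 10 lower. Of these 10, 3 had an unadjusted p under 0.05 (2 lower, 1 higher), where 9.15% of all genes had one. Enteroendocrine markers summed to 6.11 to 10.1 and 9.95 to 55.1 CPM and tuft markers to 3.15 to 9.73 and 2.51 to 3.53 CPM. The part of these cell types in the S100 values was not tested.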

How the data were processed

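RNA of sorted Lgr5-GFP+ cells of 8 mice was sequenced after Smart-seq2 amplification, without molecular identifiers. Reads were processed with bcl2fastq 2.19.1, GSNAP 2018-07-04 (mm10) and featureCounts 1.6.3 (Ensembl release 92, unstranded, mapping quality of at least 1), per the submitters' processing notes and the file header. The authors deposited raw counts per gene, which were used for every test, and a signal table in which counts are divided by 1 size factor of each library (DESeq2 1.22.2) and rounded, which was used to find the members. In the signal table the authors kept genes with at least 11 counts in total.

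Genes were filtered with filterByExpr (10 counts, 15 in total), scaled with TMM and fitted with edgeR 4.0.16 (quasi-likelihood, two-sided, Benjamini-Hochberg) in R 4.3.3, with the genotype alone or with the genotype and the set of library numbers. The biological coefficient of variation common to all genes was 0.435. Genes with an adjusted p under 0.1 were called, the threshold that the study applied to DESeq2 and not to edgeR. DESeq2 1.42.0 and other scalings, filters, a block and left-out libraries were alternatives. Standard errors derive from the F statistic. CPM is scaled by TMM, and log2 values use a prior count of 2. Floors cover counting error only. Positions and exon lengths come from the deposited count table (Ensembl release 92, GRCm38), and upstream sequences from RefSeq. The 31-base words come from transcripts of GENCODE release 21 of the mouse. Scripts were tested on simulated data, and figures were drawn with matplotlib 3.10.9.

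The members, gene lists and motifs were chosen with earlier results of these data known. Named genes were the members and other S100 genes, list genes called or with an unadjusted p under 0.05 (at most 6 a list), *Kmt2a*, *Ctnnb1*, the 5 genes nearest to *S100a6* and genes singled out as stated. Of these 5 genes, 1 is not reported here.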

Additional observations from a re-analysis of the deposited data

Results flagged for a closer look

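*S100a14* had 1 library far from the rest of its group. Among the 4 Mll1-/- libraries, J_7135 held 0 counts and the others 36 to 42 counts, and the gap below the others took 0.915 of the range of log2 CPM, above Dixon's 95% limit for 4 libraries. It was the only one of the 16 groups checked, 8 members in each genotype, and chance gives about 1 in 20 groups.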

How the results depend on the processing

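No paired analysis was possible because the animal numbers of the genotypes are all different. Over all genes, 14 were called between the genotypes, and 406 with DESeq2's Wald test, 47 without the filter on low counts (40036 genes tested), 34 with at least 10 counts in every library (13066 tested) and 0 with the set of library numbers as a block, where 1642 had an unadjusted p under 0.05. With each library left out the count was 0 to 45: 45 without J_7135, 2 without J_7075 and 0 without each of the others, with 1189 to 1847 at an unadjusted p under 0.05. The cause was not tested. Of the members, 2 (*S100a6* and *S100a16*) were called between the genotypes by DESeq2's Wald test, and 0 under the other 12 alternatives. Between the sets of library numbers, 2 (*S100a11* and *S100a10*) were called by DESeq2's Wald test, 1 (*S100a11*) without the filter, and 0 under the other 10, beside 386 of 16445 genes by the Wald test, 675 of 40036 without the filter and 0 of 16445 with edgeR and the filter. The median log2 fold change of the members stayed between 0.03 and 0.33. *S100a6*, *S100a13*, *S100a14* and *S100a16* were higher and *S100a10* and *S100g* lower in Mll1-/- libraries in every alternative that gave a value. *S100a1* took either sign, from -0.40 (without J_7135, standard error 0.21) to 0.05, and so did *S100a11*, from -0.19 to 0.22. *S100a14* could not be fitted with at least 10 counts in every library. Without single libraries 3 to 5 of the 7 neighbouring levels differed. The step from *S100g* to *S100a16* did not pass without J_7075, J_7096, J_7100, J_7134 or J_7136, each with an adjusted p of 0.055, where 7 libraries allow fewer sign flips, and passed without J_7135. Without J_7079 or J_7139, *S100a6* stood between them, and the step from *S100g* to *S100a6* had an adjusted p of 0.255. Scaling to spike-in transcripts was not run, since the libraries held at most 36 spike-in counts where 1000 were required. Genes at or under 3 counts, *S100a14* among them in 4 libraries, are limited by their low counts.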
